A study of Homo sapiens with 10 samples.

Results

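The presynaptic release genes studied here were RIMS1, RIMS2, SYT1, SNAP25, ERC2, UNC13C, CADPS, CADPS2, STXBP5L and PCLO, which encode scaffolds of the active zone, factors that prime synaptic vesicles and proteins of the fusion step. They were listed by name for that role, with earlier results of these data known, and are 10 of 19974 protein-coding genes on chromosomes 1 to 22 and X. Each was read over its RefSeq span on GRCh38 with 2 kb on either side, 5.72 Mb in all. Chromatin immunoprecipitation and sequencing (ChIP-seq) had been done for H4R3me2s, histone H4 with arginine 3 dimethylated symmetrically, in the neuroblastoma line SH-SY5Y, which can be driven towards a neuronal state. The BDNF+Dox cells (n = 3) were differentiated for 10 days, 6 of them in 3% fetal calf serum with 10 µM retinoic acid and 4 without serum in the neurotrophin BDNF at 50 ng/ml, and received doxycycline at 1 µg/ml for 3 days, which induces α-synuclein by a Tet-on system. The BDNF cells (n = 3) had the same 10 days of differentiation without doxycycline, and the Naive cells (n = 3) were not differentiated. All cultures grew with 300 µg/ml zeocin, and 1 Input library served as the background of all 9 ChIP libraries. The Input is listed without retinoic acid, BDNF, doxycycline or differentiation, so in treatment it matches the Naive cells only. Doxycycline without the construct was not analysed here, so effects of the drug and of α-synuclein cannot be told apart, and differentiation differs from Naive in retinoic acid, BDNF, serum and time together. Peak lists show neither the induction of α-synuclein nor the expression of neuronal markers, so neither was checked. The labels do not say whether replicates were separate cultures, so p-values measure the spread between these libraries, which may be technical.

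Neurotransmitter release takes place at the active zone, where large scaffold proteins hold docked vesicles beside calcium channels. Priming factors bring the SNARE proteins of vesicle and plasma membrane into a state ready for fusion, and synaptotagmin triggers fusion when calcium enters. H4R3me2s is written mainly by the arginine methyltransferase PRMT5 and has been linked in the literature to transcriptional repression, although its place in chromatin is less well mapped than that of the lysine marks. Several genes of the release machinery are very long and are transcribed mainly in neurons and endocrine cells.

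A peak in these data is an interval that MACS2 called at p of 0.01 or less, for each library against the Input. The pileup, fold enrichment, p and q of a peak are the authors' values. The 9 libraries kept between 17164402 and 18928589 reads after duplicate removal and held between 4505 and 12135 peaks each. The highest peak numbers were in Naive replicate 1 and in BDNF+Dox replicate 1, with 12135 and 10807 peaks, and the lowest was in BDNF replicate 2. Peak number averaged 8006 ± 2444 in BDNF+Dox libraries, 5820 ± 1198 in BDNF libraries and 8607 ± 3216 in Naive libraries (SD, n = 3 each). Values at equal peak number are therefore given beside the results that turn on a difference between groups.

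Of the 10 genes, 9 spanned 408.873 to 960.157 kb, while SNAP25 spanned 88.589 kb. Peak counts follow length, and the 482 protein-coding genes of 400 kb or more are therefore given beside the genes throughout as long genes. The libraries placed 215 peaks in the 10 genes, 86 in the 3 BDNF+Dox, 50 in the 3 BDNF and 79 in the 3 Naive libraries. All 9 long members had a peak in at least 1 library, as did 99.4% of long genes and 37.3% of all protein-coding genes. RIMS2 was the 1 member with a peak in all 9 libraries, a state found in 21.8% of long genes and 0.561% of all protein-coding genes, and 5 members had peaks in 8 or more, as did 42.9% of long genes and 1.31% of all protein-coding genes.

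Peaks in these genes lay almost throughout in the gene interiors, which also make up nearly all of the length. Among the 215 library peaks, 2 lay within 2 kb of a gene end, a zone of 1.40% of the length examined. These were a BDNF+Dox replicate 1 peak 0.624 kb from the end of RIMS2 and a BDNF replicate 3 peak at chr3:62398570-62398780, 0.327 kb from the end of CADPS. RefSeq promoter windows on GRCh38.p14, running from 250 bases before to 50 bases after a transcription start, were given for 7 of the 10 genes, 9 windows in all, and RIMS2, CADPS2 and SNAP25 had no entry. No library peak and no pooled peak of the authors' deposited tables overlapped any of the 9 windows, which cover 2.7 kb or 0.0472% of the length examined. No overlap in so short a length says only that no call was made there. The windows differed widely in base composition. The dinucleotide CG, which reads the same on both strands, occurred 40 times in the ERC2 window, and 7.61% of 35116 windows of that length genome-wide hold as many, against a median of 14 and 96.0% with at least 1. RIMS1 had 3 windows, of which the first in the direction of transcription held 23 CG (as many in 35.8% of windows) and the other two, inside the gene, held 3 each (as many in 81.8%). STXBP5L held 22 CG (as many in 37.7%), and PCLO, UNC13C, CADPS and SYT1 held 33, 19, 17 and 15. Below, 4 windows are shown because they span this range from CG-rich to CG-poor. STXBP5L is among them because, of the library peaks counted in these genes, the one nearest to a window of its gene is there. They lie at chr3:56468418-56468717 (ERC2, minus strand), chr3:120907955-120908254 (STXBP5L, plus strand), chr6:71886300-71886599 (RIMS1, first start, plus strand) and chr6:72216271-72216570 (RIMS1, internal start, plus strand), and capitals mark CG.
ERC2: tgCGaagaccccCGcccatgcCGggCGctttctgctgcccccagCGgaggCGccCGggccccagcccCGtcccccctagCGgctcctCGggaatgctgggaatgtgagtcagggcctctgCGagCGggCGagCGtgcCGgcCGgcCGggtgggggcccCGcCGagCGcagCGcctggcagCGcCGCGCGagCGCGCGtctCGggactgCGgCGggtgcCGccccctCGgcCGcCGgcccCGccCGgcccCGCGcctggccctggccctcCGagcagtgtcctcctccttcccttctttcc
STXBP5L: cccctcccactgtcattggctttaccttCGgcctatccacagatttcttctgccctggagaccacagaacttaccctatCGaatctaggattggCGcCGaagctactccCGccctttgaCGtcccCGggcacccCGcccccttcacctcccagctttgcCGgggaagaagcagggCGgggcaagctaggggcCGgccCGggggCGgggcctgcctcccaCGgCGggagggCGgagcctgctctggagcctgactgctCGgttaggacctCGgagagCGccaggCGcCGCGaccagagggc
RIMS1 first start: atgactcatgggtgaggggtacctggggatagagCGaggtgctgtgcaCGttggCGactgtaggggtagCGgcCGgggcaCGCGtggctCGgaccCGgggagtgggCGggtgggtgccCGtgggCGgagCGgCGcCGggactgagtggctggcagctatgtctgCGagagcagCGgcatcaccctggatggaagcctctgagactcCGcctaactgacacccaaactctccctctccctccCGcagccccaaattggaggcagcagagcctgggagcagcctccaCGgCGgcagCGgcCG
RIMS1 internal start: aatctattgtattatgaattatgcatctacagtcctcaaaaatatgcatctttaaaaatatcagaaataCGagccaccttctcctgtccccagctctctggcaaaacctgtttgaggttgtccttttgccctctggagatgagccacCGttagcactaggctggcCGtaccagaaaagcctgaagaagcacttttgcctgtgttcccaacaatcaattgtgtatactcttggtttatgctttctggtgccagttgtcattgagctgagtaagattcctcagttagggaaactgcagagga
Distances given here run from the middle of a window to the centre of the nearest library peak counted in the same gene. For STXBP5L this was 3.94 kb, to a BDNF replicate 3 peak at chr3:120911963-120912119 with a fold of 4.49. For the 3 RIMS1 windows this distance was 11.2, 8.17 and 5.99 kb in the order of transcription, and for UNC13C it was 21.2 kb. It was 59.9 kb for PCLO, 68.7 kb for CADPS, 70.4 kb for ERC2 and 129 kb for SYT1. The CG-rich ERC2 start stood among those farthest from a peak, and the CG-poor internal RIMS1 starts among the nearer. The distances did not follow CG number, since SYT1 with 15 CG was the farthest and STXBP5L with 22 the nearest. Internal starts also have counted gene length on both sides, while starts at a gene end have it mainly on 1 side. The UNC13C window, at chr15:53978191-53978490, lies inside its gene too.

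The active zone scaffolds were RIMS1 and RIMS2, which tie vesicles and calcium channels to the release site, ERC2, a member of the ELKS/CAST family that binds RIM proteins, and PCLO, the giant scaffold piccolo. RIMS2 (chr8:103500610-104256094) had 8, 4 and 9 peaks in the BDNF+Dox libraries, 2, 2 and 2 in the BDNF libraries and 7, 1 and 4 in the Naive libraries. Every BDNF+Dox library lay above every BDNF library, while the Naive libraries spread across both. Such a separation was found in 1.62% of the 7453 protein-coding genes with a library peak and in 7.68% of long genes. Per length RIMS2 averaged 9.22 ± 3.48 peaks per Mb in BDNF+Dox libraries, 2.63 ± 0 in BDNF and 5.27 ± 3.95 in Naive (SD, n = 3 each). The difference of BDNF+Dox minus BDNF was 5 peaks (exact two-sided permutation p = 0.1, the smallest that 3 libraries against 3 allow), and that of BDNF+Dox minus Naive was 3 peaks (exact permutation p = 0.3). Over all 3 groups the exact permutation test of the F ratio gave p = 0.0857 for RIMS2, and an adjusted p of 1 over the 7453 genes.

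The separation of RIMS2 was read at other peak thresholds too. When each library was reduced to its 4505 strongest peaks by p, RIMS2 had 3, 2 and 4 peaks in BDNF+Dox and 2, 2 and 2 in BDNF, and the groups met at 2 peaks. With peaks of −log10 p of 3 or more it had 6, 3 and 6 peaks in BDNF+Dox and 1, 2 and 2 in BDNF, and the groups stayed apart. The peaks of the 3 BDNF+Dox libraries fell at different places in the gene: of the 39 library peaks in RIMS2, most stood alone, and neither of the 2 regions shared between libraries held 2 BDNF+Dox libraries. The first, chr8:103966486-103966685, held BDNF+Dox replicate 2 and BDNF replicate 2, and the second, chr8:104252813-104253185 near the end of the gene, held BDNF+Dox replicate 2 and Naive replicate 3. The peak of BDNF+Dox replicate 1 beside the end of RIMS2 lay just outside the span, at chr8:104256585-104256850. The strongest RIMS2 peak by p was in Naive replicate 3, at chr8:104173018-104173248, with a fold of 4.75 and a q of 0.284.

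ERC2 (chr3:55508311-56468467) is the longest of the 10 genes. It had 6, 3 and 5 peaks in BDNF+Dox, 2, 1 and 4 in BDNF and 2, 1 and 0 in Naive libraries. Here every BDNF+Dox library lay above every Naive library, as in 0.899% of the 7453 genes and 3.11% of long genes, while BDNF overlapped both. The means were 4.84 ± 1.58, 2.42 ± 1.58 and 1.04 ± 1.04 peaks per Mb in BDNF+Dox, BDNF and Naive (SD, n = 3 each). BDNF+Dox minus Naive was 3.67 peaks (exact permutation p = 0.1, the smallest possible), BDNF+Dox minus BDNF was 2.33 (exact permutation p = 0.2), and the F ratio over 3 groups had an exact permutation p of 0.0643 and an adjusted p of 1. This separation was lost at equal peak number, with 2, 0 and 4 ERC2 peaks in BDNF+Dox and 1, 1 and 0 in Naive, and also at −log10 p of 3 or more, with 4, 0 and 4 against 2, 1 and 0. In ERC2, which runs on the minus strand, 13 of 24 peaks lay in the 5′ part when the gene was cut into 3 equal parts, 5 in the middle and 6 in the 3′ part, and the longest stretch between neighbouring peaks was 255 kb. Its 1 shared region, chr3:56265226-56265557, held BDNF+Dox replicate 2 and Naive replicate 2.

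**Figure D1:**
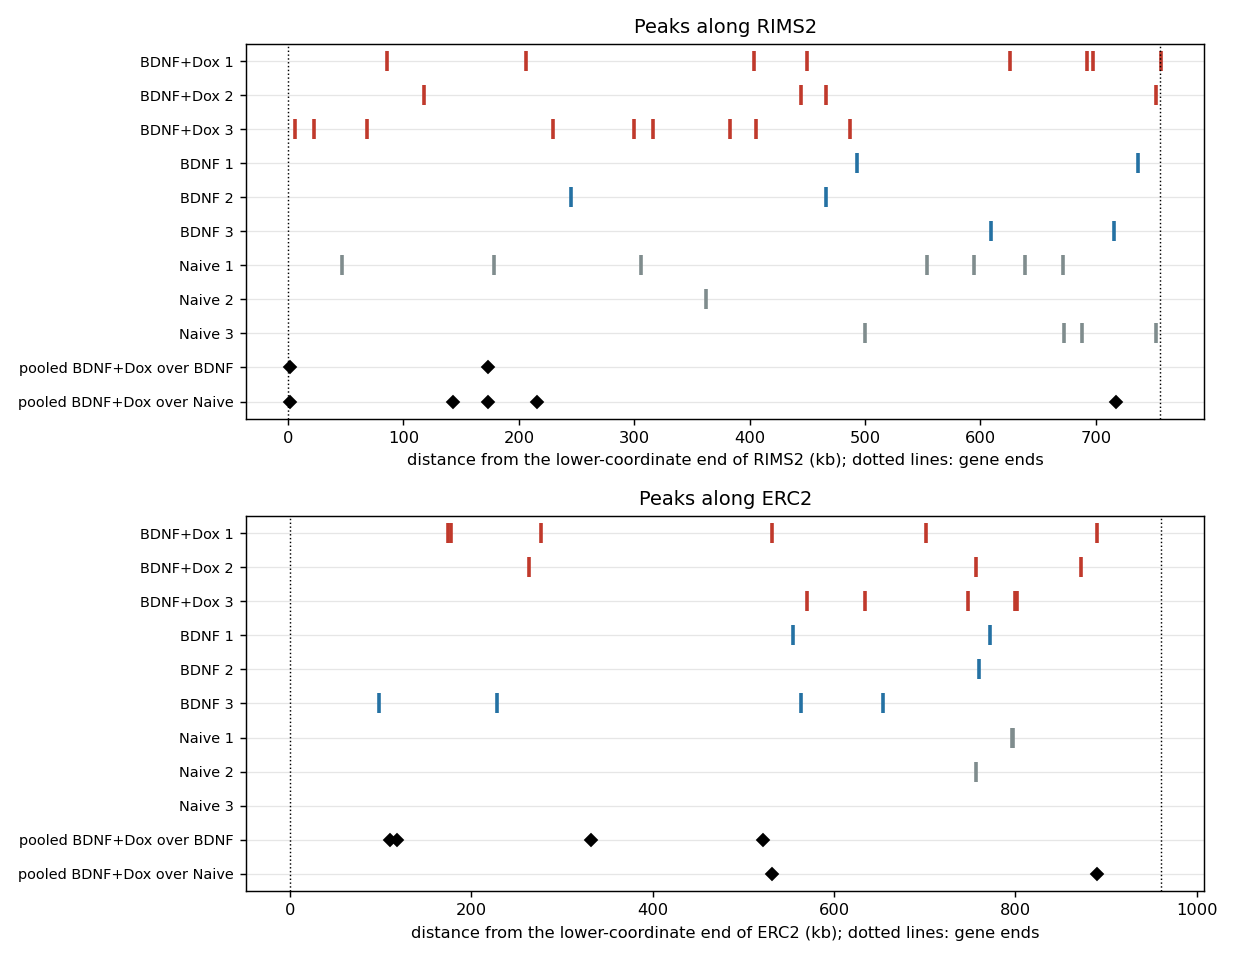
Places of H4R3me2s peaks along RIMS2 (upper panel) and ERC2 (lower panel), as distance in kb from the lower-coordinate end of the gene. Each row is 1 library or 1 pooled narrow list, vertical marks are library peaks, diamonds are pooled peaks of the authors' deposited tables, and dotted lines are the gene ends. BDNF+Dox libraries had 8, 4 and 9 marks in RIMS2 against 2 in each BDNF library, at places that rarely coincide between rows.

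RIMS1 and PCLO did not separate any groups. Nor did any of the 10 genes separate groups in another direction, where every BDNF library lay above every BDNF+Dox library in 0.201% of the 7453 genes and 0.622% of long genes, and every Naive library above every BDNF+Dox library in 0.523% and 2.07%. For BDNF above Naive the shares were 0.201% and 0.83%, and for Naive above BDNF 1.11% and 4.77%. RIMS1 (chr6:71886550-72403145) had 4, 3 and 0 peaks in BDNF+Dox, 3, 2 and 3 in BDNF and 3, 0 and 3 in Naive libraries, with 0 peaks in a library of BDNF+Dox and in a library of Naive and the highest value in BDNF+Dox (exact permutation p = 1 over 3 groups). PCLO (chr7:82754012-83162884) had 2, 2 and 3 peaks in BDNF+Dox, 0, 2 and 0 in BDNF and 7, 1 and 1 in Naive. Its highest count came from Naive replicate 1, the library with the most peaks, and without that library BDNF+Dox minus Naive was 1.33 peaks instead of −0.67. The exact permutation p of PCLO over 3 groups was 0.539. PCLO had 1 shared region, chr7:82896868-82897086, from BDNF+Dox replicate 3 and Naive replicate 2, and RIMS1 had none.

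Among the priming factors, UNC13C encodes a Munc13 protein, the family that opens syntaxin for SNARE assembly, and CADPS and CADPS2 encode the CAPS proteins, best known for priming dense-core vesicles. UNC13C (chr15:53837602-54633440) had 4 peaks in each BDNF+Dox library, 5, 0 and 1 in BDNF and 8, 4 and 4 in Naive libraries. The BDNF+Dox libraries were alike, and BDNF replicate 1 lay above all of them, so the groups overlapped (exact permutation p = 0.214 over 3 groups). With equal peak numbers the likeness was gone, at 0, 3 and 2 peaks in BDNF+Dox. UNC13C held 2 shared regions, chr15:54236456-54236688 with BDNF replicate 1 and Naive replicate 1, and chr15:54358697-54359075 with BDNF+Dox replicate 3 and Naive replicate 1. CADPS2 (chr7:122318411-122886460) had 5, 0 and 4 peaks in BDNF+Dox, 3, 1 and 7 in BDNF and 5, 5 and 4 in Naive libraries. Its Naive libraries were alike, while BDNF+Dox and BDNF each held both low and high values (exact permutation p = 0.711). CADPS (chr3:62398348-62875416), its paralogue, had 1, 1 and 2, then 0, 0 and 3, then 1, 2 and 0 peaks in BDNF+Dox, BDNF and Naive (exact permutation p = 1), a lower density than CADPS2 in each group mean. Per length the paralogues averaged 5.24 ± 4.63 (CADPS2) and 2.77 ± 1.20 (CADPS) peaks per Mb in BDNF+Dox, 6.41 ± 5.34 and 2.08 ± 3.60 in BDNF, and 8.16 ± 1.01 and 2.08 ± 2.08 in Naive. The span of CADPS2 also holds the small coding genes RNF133 and RNF148, and no peak lay on either.

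CADPS2 carried the strongest library peak of the 10 genes. It lay at chr7:122729970-122730120 in Naive replicate 1, with a fold of 4.98, a −log10 p of 7.14 and a q of 0.0582. The place also overlaps the annotated gene LOC124901738, and no other library had a peak there. Of the 215 library peaks 0 had a q of 0.05 or less, and such peaks were also rare in the libraries as a whole, at 0.147% to 0.556% of each. Folds ran from 2.44 to 4.98 and pileups from 4.51 to 11.5 with a median of 6.63, so each call rests on few overlapping fragments. The peaks were 151 to 425 bp long.

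The fusion genes were SYT1, the calcium sensor synaptotagmin 1, SNAP25, a SNARE protein of the plasma membrane, and STXBP5L, a tomosyn that competes for SNARE assembly. STXBP5L (chr3:120908205-121424761) had 2, 3 and 2 peaks in BDNF+Dox, 0, 1 and 3 in BDNF and 5, 4 and 2 in Naive libraries. The Naive libraries reached highest and all groups met or overlapped (exact permutation p = 0.2 over 3 groups). At equal peak number STXBP5L had 1, 2 and 1 peaks in BDNF+Dox, 0, 1 and 2 in BDNF and 2, 2 and 2 in Naive. Along STXBP5L, on the plus strand, 13 of 22 peaks lay in the 5′ part, 6 in the middle and 3 in the 3′ part. SYT1 (chr12:78863982-79452008) had 1, 3 and 1 peaks in BDNF+Dox, 0, 1 and 2 in BDNF and 3, 0 and 2 in Naive libraries, and no group stood apart (exact permutation p = 0.829). SNAP25 (chr20:10218830-10307418) had 0 peaks in each of the 9 libraries and was not tested. It is the shortest of the genes, so its 0 is not on a par with the counts of the others.

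**Figure D2:**
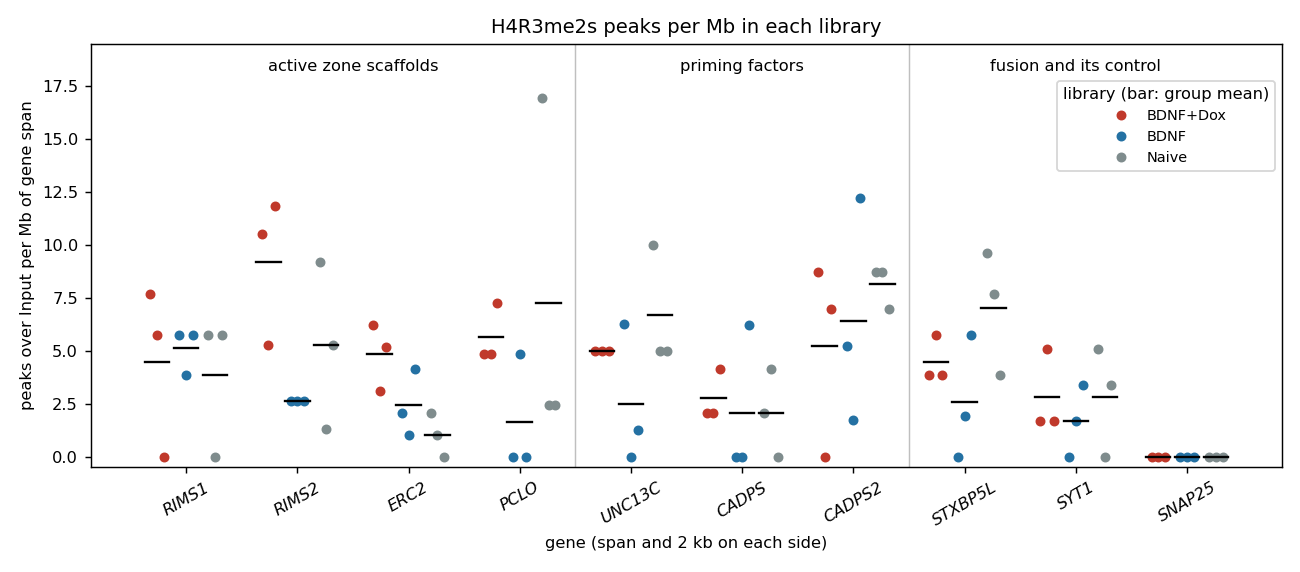
H4R3me2s peaks per Mb of gene span (vertical axis) in each of the 10 presynaptic genes, grouped by role. Each point is 1 library, with BDNF+Dox, BDNF and Naive from left to right within a gene, and bars are group means (n = 3). RIMS2 in BDNF+Dox lies above RIMS2 in BDNF in every library, ERC2 in BDNF+Dox lies above ERC2 in Naive in every library, and SNAP25 has 0 peaks in all 9.

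Across all genes, the exact permutation test of the F ratio called 0 of 7453 genes at an adjusted p under 0.05 (0%), with 70 at an unadjusted p under 0.05 (0.939%), among them 19 of 479 long genes (3.97%). With 9 libraries an adjusted call would need at least 533 genes at the smallest possible p, so the count of 0 was nearly set by the design. None of the 9 tested presynaptic genes was among those 70, and every adjusted p of the pairs of groups was 1. The mean peak number of BDNF+Dox was above that of BDNF in 7 presynaptic genes and below it in 2, where 65.8% of long genes were above and 21.7% below. The median difference was 1 peak over the tested presynaptic genes, against 0.67 over long genes. Against Naive, BDNF+Dox was above in 4 and below in 4, where the shares of long genes were 47.8% and 41.1%. BDNF was above Naive in 2 genes and below it in 6, where the shares were 26.9% and 62.2%. The comparisons share their libraries and are not independent.

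Peak density over the 10 genes together was 5.77, 4.02 and 5.25 peaks per Mb in BDNF+Dox libraries, 2.62, 1.75 and 4.37 in BDNF libraries and 7.17, 3.15 and 3.50 in Naive libraries. The groups overlapped, since BDNF replicate 3 lay above BDNF+Dox replicate 2 and Naive replicate 1 lay above every other library. The means were 5.02 ± 0.898 in BDNF+Dox libraries, 2.92 ± 1.34 in BDNF and 4.61 ± 2.23 in Naive (SD, n = 3 each). The other long genes averaged 3.28 ± 0.979, 2.28 ± 0.459 and 3.34 ± 1.20 peaks per Mb in the same groups, and all other protein-coding genes 2.61 ± 0.704, 1.77 ± 0.355 and 2.48 ± 0.866. BDNF+Dox over BDNF was therefore a ratio of 1.72 in the presynaptic genes, 1.44 in the other long genes and 1.38 in the number of peaks per library. BDNF+Dox over Naive was 1.09 in the presynaptic genes, 0.981 in the other long genes and 0.930 in peak number. When each library was held to 4505 peaks, the 10 genes had 42, 40 and 40 peaks in BDNF+Dox, BDNF and Naive, at 2.45 ± 0.700, 2.33 ± 0.535 and 2.33 ± 0.202 peaks per Mb, and the ratio of BDNF+Dox over BDNF was 1.05. Per 1000 peaks of the library, the 10 genes held 3.71 ± 0.915 in BDNF+Dox libraries, 2.78 ± 0.766 in BDNF and 3.00 ± 0.421 in Naive, and the ratio of BDNF+Dox over BDNF was 1.34. The ratio thus lay between 1.05 and 1.72 by how peak number was taken into account, and the part of peak number in it was not tested further.

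The density of the presynaptic genes relative to the other long genes was 1.31, 1.44 and 1.99 in BDNF+Dox libraries, 1.13, 0.975 and 1.61 in BDNF libraries and 1.54, 1.36 and 1.15 in Naive libraries. It was above 1 in 8 of the 9 libraries, the exception being BDNF replicate 2, and the groups overlapped. With a mean of 1.39, the members as a set held more peaks per length than other long genes in most libraries of every group. The genes were not chosen at random, so this is a description of these 10.

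**Figure D3:**
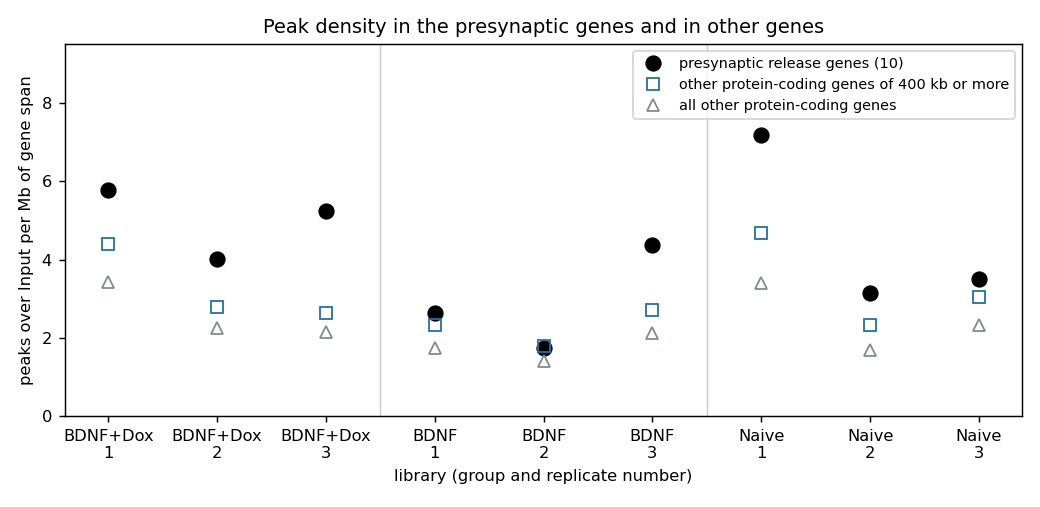
Peaks per Mb of gene span (vertical axis) in each of the 9 libraries (horizontal axis), for the 10 presynaptic genes together (filled circles), other protein-coding genes of 400 kb or more (squares) and all other protein-coding genes (triangles). The circles vary from library to library with the squares and lie above them in 8 of 9, from 1.75 peaks per Mb in BDNF replicate 2 to 7.17 in Naive replicate 1.

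The genes differed among themselves in density. Over the 9 libraries CADPS2 had the highest mean at 6.60 ± 3.79 peaks per Mb (SD over 9 libraries), which placed it at rank 9 of the 482 long genes. It was followed by RIMS2 at 5.71 ± 3.89 (rank 18), PCLO at 4.84 ± 5.14 (rank 41), UNC13C at 4.72 ± 2.85 (rank 48), STXBP5L at 4.70 ± 2.90 (rank 49) and RIMS1 at 4.48 ± 2.72 (rank 65). These 6 lay above the upper quartile of long genes, 3.86 peaks per Mb. ERC2 at 2.77 ± 2.07 (rank 249), SYT1 at 2.44 ± 1.91 (rank 284) and CADPS at 2.31 ± 2.19 (rank 296) lay below the long-gene median of 2.80. Each step between neighbours in this order was smaller than the SD of either gene, except the last, from CADPS to SNAP25 at 0. The order also differed between groups. In BDNF+Dox RIMS2 (9.22) and PCLO (5.65) lay above CADPS2 (5.24), and ERC2 (4.84) above RIMS1 and STXBP5L (4.48 each), while CADPS2 led in BDNF (6.41) and in Naive (8.16). Other long genes on the same chromosome averaged 2.82 peaks per Mb on chromosome 6 (RIMS1), 3.37 on 8 (RIMS2), 3.93 on 7 (PCLO and CADPS2), 2.09 on 15 (UNC13C), 3.41 on 12 (SYT1) and 3.03 on 3 (ERC2, CADPS and STXBP5L). The same 6 genes lay above the mean of their chromosome and the same 3 below it, so CADPS and STXBP5L, on 1 chromosome, fell on opposite sides. Strand was read from the promoter windows, so RIMS2, CADPS2 and SNAP25, which had none, were left out here. Within the other 7 genes the peaks were spread over the length. Of their 142 peaks, 52 lay in the 5′, 52 in the middle and 38 in the 3′ part. Beside ERC2 and STXBP5L, with most peaks in the 5′ part, UNC13C had 10, 17 and 7, RIMS1 5, 9 and 7, and PCLO 4, 8 and 6 peaks from 5′ to 3′, with the most in the middle, and CADPS (3, 3 and 4) and SYT1 (4, 4 and 5) were even. Median spacing between neighbouring peaks ran from 11.1 kb in PCLO to 37.5 kb in CADPS.

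**Figure D4:**
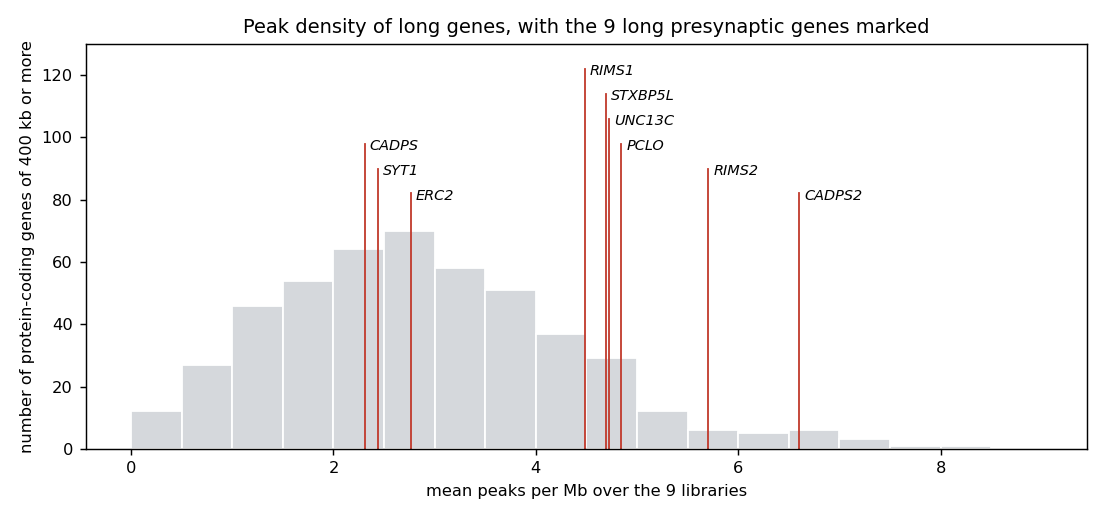
Number of protein-coding genes of 400 kb or more (vertical axis) by mean H4R3me2s peaks per Mb over the 9 libraries (horizontal axis), with the 9 long presynaptic genes marked by red lines. CADPS, SYT1 and ERC2 lie between 2.31 and 2.77, below the median of 2.80, and 6 genes lie between 4.48 and 6.60, above the upper quartile of 3.86.

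Library peaks of the presynaptic genes seldom met. Of the 215 peaks, 195 (90.7%) overlapped no peak of another library, and the rest overlapped 1 other library each. They merged into 205 regions, of which 10 (4.88%) held 2 libraries and 0 held 3 or more. Among the other long genes 213 of 8667 regions (2.46%) held 2 or more libraries. Peaks were also denser in the presynaptic genes, at a mean of 4.18 per Mb over the 9 libraries against 2.97 in other long genes. The part of density in these shares was not tested. The 1 region that joined libraries of a single group was chr3:120980801-120981081 in STXBP5L, with peaks in BDNF+Dox replicates 1 and 3, and the other 9 joined libraries of different groups. Besides those given above they lay at chr3:121048351-121048547 in STXBP5L (BDNF+Dox replicate 1 and Naive replicate 1), chr3:62791361-62791741 in CADPS (BDNF+Dox replicate 1 and BDNF replicate 3) and chr7:122644550-122644761 in CADPS2 (BDNF+Dox replicate 3 and Naive replicate 3). No place in any of the 10 genes was therefore marked in all 3 libraries of a group. The separations seen in RIMS2 and ERC2 were in peak number, not at shared sites, and neither held at equal peak number.

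The authors also merged the reads of each group and called BDNF+Dox directly over BDNF and over Naive, so that a pooled peak is a place with more signal in BDNF+Dox, with no spread between replicates. In the authors' deposited table of narrow peaks over BDNF, 9 of the 10 genes, all but SNAP25, had a peak, as did 14.7% of all protein-coding genes, 48.5% of those at least as long as SNAP25 and 86.7% of long genes. The authors' deposited table over Naive had a peak in 8 of the 10, all but CADPS2 and STXBP5L, against 13.1%, 41.6% and 77.6% of the same gene sets. Both shares thus lie near those of genes of like length. By density the 23 peaks over BDNF came to 4.02 per Mb and other long genes to 4.30 in the authors' deposited table, and the 19 peaks over Naive came to 3.32 per Mb and other long genes to 3.33. CADPS and RIMS1, with 4 peaks each (8.31 and 7.68 per Mb), were the densest over BDNF, and RIMS2, with 5 peaks (6.58 per Mb), held the most over Naive in the authors' deposited table. In these lists the order of the genes differed from that in single libraries, where CADPS had the lowest density of the 9 long members.

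Most of the pooled peaks were weak. Over BDNF 16 of 23 (69.6%) had a q of 1 in the authors' deposited table, as did 68.5% of the whole list, and over Naive 14 of 19 (73.7%) did, against 82.8%. The peak that passed a q of 0.05 was in CADPS2, at chr7:122578260-122578445, with a fold of 3.46 over BDNF and a q of 0.0419 in the authors' deposited table. A peak over BDNF at this q was found in 1.45% of long genes in the authors' deposited table. Yet no single library of any group had a peak against the Input at that place, and CADPS2 had 9 library peaks in the 3 BDNF+Dox and 11 in the 3 BDNF libraries. The authors' deposited table over Naive held 0 peaks of the 10 genes at this q, and such peaks in 1.66% of long genes.

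RIMS2 held the next strongest pooled peak, and it appeared in both comparisons. The peak at chr8:103674088-103674282 had a fold of 3.79 and a q of 0.0745 over BDNF in the authors' deposited table, and an overlapping one, chr8:103674082-103674266, had a fold of 3.52 and a q of 0.164 over Naive. A further RIMS2 peak, at chr8:103502209-103502409 in the authors' deposited table over BDNF, lay 1.70 kb inside the lower-coordinate end of the gene, with a fold of 3.46 and a q of 0.486, and again had a counterpart over Naive with a fold of 3.47 and a q of 0.564. Neither place had a peak in any of the 9 libraries. In SYT1 the authors' deposited table over Naive held a neighbouring pair of peaks, chr12:79409957-79410164 with a fold of 3.70 and a q of 0.214 and chr12:79404413-79404575 with a fold of 3.33 and a q of 0.429, and neither had a counterpart over BDNF or in a library. The 1 narrow peak of SNAP25, chr20:10284601-10284776 in the authors' deposited table over Naive, had a fold of 3.24 and a q of 1. In all, 6 peaks of the 10 genes in each list overlapped the other list, and both lists use the same merged BDNF+Dox reads.

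Library support for the pooled peaks was sparse. Of the 23 over BDNF in the authors' deposited table, 3 (13.0%) overlapped a peak of a BDNF+Dox library, against 17.9% of the 9850 peaks of the whole list. These lay in RIMS1 (chr6:72091939-72092117, BDNF+Dox replicate 2), SYT1 (chr12:79036457-79036683, BDNF+Dox replicate 2) and STXBP5L (chr3:121048371-121048533, BDNF+Dox replicate 1, and also Naive replicate 1). Of the 19 over Naive in the authors' deposited table, 5 (26.3%) overlapped one, against 18.3% of 7882, in RIMS1 (2 peaks), ERC2 (2 peaks) and SYT1. The RIMS1 peak at chr6:72091939 was the place with the broadest backing, present over BDNF with a fold of 3.27 and a q of 0.613 and over Naive with a fold of 2.45 and a q of 1 in the authors' deposited table, and in 1 library with a fold of 4.46. No pooled narrow peak of the 10 genes overlapped peaks of 2 or more BDNF+Dox libraries.

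**Figure D5:**
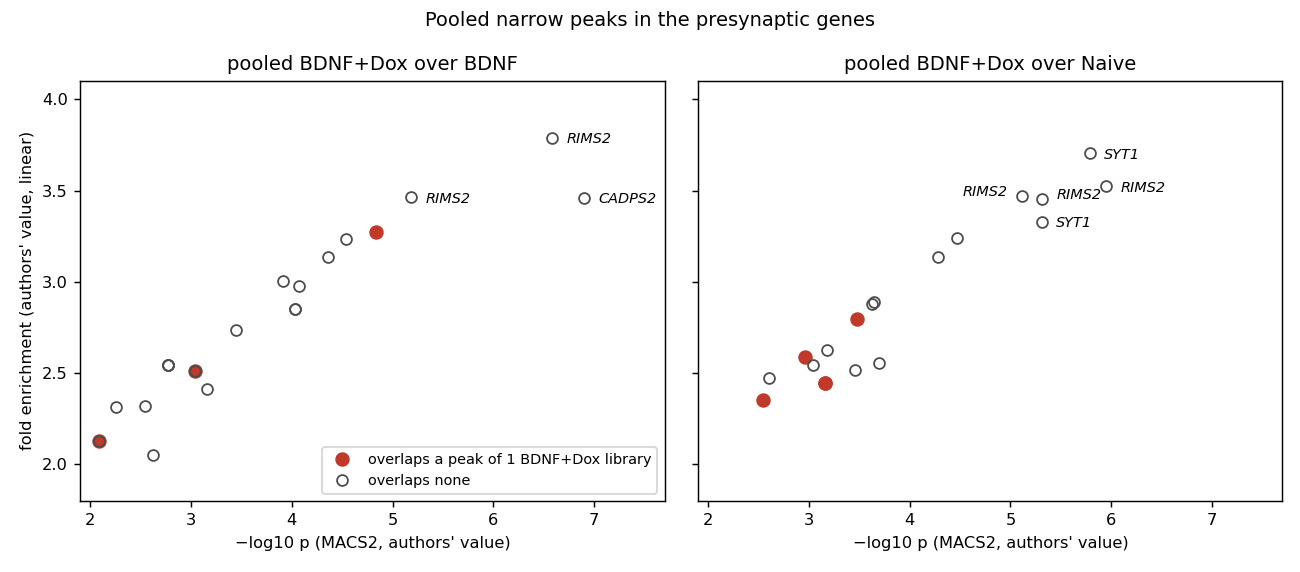
Narrow peaks of the presynaptic genes in the authors' deposited tables of merged BDNF+Dox reads over BDNF (left, 23 peaks) and over Naive (right, 19 peaks), by −log10 p (horizontal axis) and fold enrichment (vertical axis, linear). Filled points overlap a peak of 1 BDNF+Dox library and open points overlap none, and genes are named at −log10 p of 5 or more. The strongest peaks, in CADPS2, RIMS2 and SYT1, are all open.

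Broad peaks reached all of the genes. In the authors' deposited table of broad peaks over BDNF, 10 of 10 genes held 66 peaks, where 25.5% of all protein-coding genes, 71.6% of those at least as long as SNAP25 and 97.9% of long genes held one, and the density was 11.5 per Mb in these genes and 10.9 in other long genes. Over Naive the authors' deposited table held 49 broad peaks in 10 of 10 genes, where 23.7%, 67.7% and 95.6% held one, at 8.57 and 8.73 per Mb. RIMS1 was the densest of the long members over BDNF, with 10 broad peaks or 19.2 per Mb, and SYT1 over Naive, with 8 or 13.5 per Mb, in the authors' deposited table. A q of 1 was given for 57 of the 66 (86.4%, against 83.8% of the whole list) and 43 of the 49 (87.8%, against 91.6%), and the longest broad peaks were 797 and 802 bp, in the authors' deposited table over BDNF and over Naive. The broad calls thus marked short places within the genes and did not extend over their length.

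Other genes of vesicle docking, fusion, filling and recycling and of presynaptic calcium channels gave a wider view, 79 genes in all. Library peaks were found in 42 of them (53.2%, against 37.3% of all protein-coding genes), 258 peaks at a mean of 2.39 per Mb, against 4.18 per Mb in the 10 presynaptic genes. Most of these genes are shorter, with a median span of 65.6 kb. Among core SNARE genes, STX1A (syntaxin 1A) and VAMP2 (synaptobrevin 2) are short and had 0 peaks, like SNAP25. PPFIA2, a liprin-α scaffold, and DNM3, a dynamin of vesicle retrieval, had peaks in all 9 libraries, 22 and 24 in all. Both are long genes, of which 21.8% had peaks in all 9, as did 0.561% of all protein-coding genes. In 9 further genes all 3 libraries of at least 1 group had a peak. The share of all genes with such peaks was not computed, so this count is a listing only. CACNA1E, CACNA2D1, CACNA2D3, CASK and SV2C among them are long genes. Of these, CACNA2D3 and CASK had peaks in 8 or more libraries, as did 42.9% of long genes. CACNA1E had peaks in 7 libraries, SV2C in 6 and CACNA2D1 in 5. Among the 9, all 3 BDNF+Dox libraries had a peak in the calcium channel genes CACNA1E, CACNA2D1 and CACNA2D3, in STXBP5 and in SYNJ1. SYNJ1 encodes a phosphatase of vesicle uncoating, and CACNA2D3 also had a peak in all 3 Naive libraries. AMPH, an endocytic adaptor, and CASK, a presynaptic scaffold kinase, had such peaks in BDNF and in Naive, and the vesicle proteins SYT2 and SV2C in Naive. An unadjusted exact permutation p under 0.05 over 3 groups was reached by 2 of the 42 listed genes with a library peak. These were STXBP5 and CACNA2D1 (exact permutation p = 0.0429 each, with an adjusted p of 1), and genes without a library peak were not tested. The exact permutation test gave such a p in 0.939% of the 7453 genes and in 3.97% of long genes with a library peak. CACNA2D1 is a long gene, and STXBP5, with a span of 186 kb, is not. STXBP5, the tomosyn paralogue of STXBP5L, had 2, 1 and 2 peaks in BDNF+Dox, 0, 1 and 1 in BDNF and 0, 0 and 0 in Naive libraries. CACNA2D1, the α2δ subunit of voltage-gated calcium channels, had 3, 3 and 2 peaks in BDNF+Dox, 0, 2 and 2 in BDNF and 0, 0 and 0 in Naive. In both, every BDNF+Dox library lay above every Naive library, as in ERC2. STXBP5L had its highest counts in Naive, but at equal peak number each group reached at most 2 peaks in a library. A lead of every BDNF+Dox library over every Naive library was found in 0.899% of the 7453 genes and 3.11% of long genes. STXBP5 and CACNA2D1 were not read at equal peak number, where ERC2 lost its separation. The narrow lists of the authors' deposited table held 21 of the 79 genes over BDNF (26.6%, against 14.7% of all protein-coding genes) and 18 over Naive (22.8%, against 13.1%), and 0 of them had a peak at a q of 0.05 or less. These shares, and that of library peaks, are not matched for length. The 79 include long genes such as PPFIA2 and CACNA2D3, and 86.7% of long genes held such a peak over BDNF and 77.6% over Naive. Whether the shares of the 79 genes exceed those of genes of like length was not tested.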

How the data were processed

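The deposited peak lists of 9 ChIP-seq libraries of SH-SY5Y cells were analysed (3 BDNF+Dox, 3 BDNF, 3 Naive), each with the same Input as background. The 10 genes, the list of 79 further genes and the tests were chosen with earlier results of these data known. Growth medium held 10% fetal calf serum, and fixation was in 1% formaldehyde for 10 minutes. The submitters' processing notes name cutadapt 1.1, Trimmomatic 0.32, Bowtie, MACS2 2.2.7.1 and the build GRCh38.

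Libraries were called at a p threshold of 0.01 per the file headers. For the pooled lists the headers name merged files, with 54723304 reads kept for BDNF+Dox, 52693520 for BDNF and 53481523 for Naive. MACS2 gave, in the deposited columns, a pileup (signal height), a fold enrichment (a ratio to local background) and p and q on the −log10 scale. The q-values deposited by the authors were taken as they stand, although the headers say that none would be computed. Peaks carry no read counts, so a single peak has no interval here.

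Gene spans came from RefSeq on GRCh38, without exons, so exons and introns were not told apart. A peak counted in a gene when it overlapped the span and 2 kb on each side by 1 bp or more. Peak numbers per gene were tested over all 1680 assignments of the 9 libraries (F ratio, smallest p 0.00357) and over the 20 assignments of each pair of groups, with Benjamini-Hochberg adjustment over the 7453 genes with a library peak (for pairs, over genes and pairs jointly). The 10 genes as a set have no p. The tests were tried on simulated data first. Every one of the 10 is named. Of the 79, those are named that had peaks throughout a group, a pooled peak at q of 0.05 or less, or the most peaks, and the SNARE genes STX1A and VAMP2 were named after their values were seen. Alternatives were a stricter p, equal peak numbers, other flanks, other overlaps, broad lists, omitted libraries and a replicate block. Python 3.11.15, numpy 2.4.6 and pandas 2.3.3 were used.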

Additional observations from a re-analysis of the deposited data

How the results depend on the processing

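Of 407 alternative values, 385 were rated the same as the main value and 16 reversed. For log2 ratios, the same meant a shift of less than 1 SD between libraries, and for counts of genes or regions a value equal or near to the main one. For the 324 alternatives in single genes it meant only that the sign did not reverse, since no adjusted p there was below 0.899. The total is therefore no measure of stability. No alternative called a gene, which the smallest possible p nearly fixes and which says nothing of stability, and 5 to 180 genes had an unadjusted p under 0.05. The log2 ratio of the density of the 10 genes, BDNF+Dox over BDNF, was 0.78, and it was 0.19 with peaks of −log10 p of 5 or more, 0.070 with equal peak numbers, 0.42 per 1000 library peaks and 0.58 with −log10 p of 3 or more. With 1 library left out it lay between 0.52 and 1.20. BDNF+Dox over Naive was 0.12 and lay between −0.089 and 0.59 with 1 library left out, the values below 0 being those without Naive replicate 2 (−0.089) and without Naive replicate 3 (−0.041). BDNF over Naive was −0.66 and lay between −1.08 and −0.19. At −log10 p of 5 or more, 2 of the 10 genes kept a pooled peak over BDNF and 2 over Naive in the authors' deposited table. The 10 shared regions became 5 at −log10 p of 3 or more and 6 to 9 with 1 library left out, lowest without BDNF+Dox replicate 3. These shifts go with fewer peaks or libraries. Reversals in single genes came in 14 of 324 alternatives and 10 of 27 differences. At equal peak number BDNF minus Naive became 0.33 in RIMS2, 0.67 in CADPS2 and 0.33 in SYT1. With 1 library left out, RIMS1 lay between −1.17 and 0.83 (BDNF+Dox minus BDNF), −0.67 and 1.50 (BDNF+Dox minus Naive) and −0.33 and 1.17 (BDNF minus Naive) peaks, PCLO between −1.67 and 1.33 (BDNF+Dox minus Naive), CADPS between −0.17 and 1.33 (BDNF+Dox minus BDNF) and −0.17 and 0.83 (BDNF+Dox minus Naive), and CADPS2 between −2 and 1 (BDNF+Dox minus BDNF) and −2.67 and 0.33 (BDNF minus Naive).

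Correlations of deviations from the group means ran from −0.05 to 0.13 for same-numbered libraries (9 pairs) and from −0.14 to 0.10 for others (18 pairs). Correlations this small in sparse counts cannot settle whether the numbers pair samples. The labels do not say that a number marks a shared culture, so the main tests did not pair samples by it. With the replicate block, 0 genes were called and 5 had an unadjusted p under 0.05, the exact permutation p was 0.0833 for RIMS2 and 0.111 for ERC2, and the log2 ratios were 0.87, 0.21 and −0.66. Each peak rests on few fragments, and depth was alike across libraries, so a gene at 0 is a gene with no call at this depth.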
